A study of Mus musculus with 9 samples.

Results

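Mitochondrial ribosomal protein genes, the nuclear genes whose proteins form the ribosome inside mitochondria, were examined in injured mouse muscle across age and across deletion of P311. The members were the protein-coding genes of the deposited table whose symbol starts with Mrpl or Mrps followed by a digit, which gave 78 of 54532 genes, 49 named Mrpl and 29 named Mrps. RNA came from tibialis anterior, a hind limb muscle, after an injury; neither its kind nor its timing is stated in the sources used here. Each of 3 groups had 3 libraries: wild type at 4 to 6 months (young), wild type at 24 months (old), and P311-/- described as old with no age in months. Whether libraries came from different mice is not stated, and p-values therefore rest on the spread between libraries, which may be technical. P311 is the protein of the gene Nrep, and the labels do not describe the deleted allele. A replicate number names a library within its group, and the labels give it no other meaning.

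The mitochondrial ribosome has a small subunit, which reads the messenger RNA, and a large subunit, which joins amino acids and holds the exit tunnel. It translates only the few messages of the mitochondrial genome, all of them for core subunits of the oxidative phosphorylation complexes. Its ribosomal RNA is mitochondrially encoded, while its proteins are made in the cytosol from nuclear genes and imported. Skeletal muscle fibres are rich in mitochondria and rely on these products for respiration. Some of the proteins descend from bacterial ribosomal proteins and others arose in mitochondria only.

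By role, 51 members belong to the large subunit, of which 30 have a bacterial homologue and 21 are specific to mitochondria. The small subunit accounts for 26 members, 16 with a bacterial homologue and 10 without. Mrps30 and Mrps18a belong to the large subunit despite their names. Mrps36 belongs to neither, since its product is a component of the oxoglutarate dehydrogenase complex. The members lie on 17 chromosomes, with 11 on chromosome 11 and 8 on chromosome 17. Gene positions are those of the deposited table, on GRCm38.

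The labels and libraries were checked on a few values. Nrep was at 86.3, 72.6 and 63.9 FPKM (fragments per gene length and library size) in young wild type and at 72.4, 71.4 and 83.1 FPKM in old wild type. In the P311-/- libraries it was at 14.8, 6.37 and 9.72 FPKM, a log2 fold change of -2.94 against old wild type (limma adjusted p = 0.00364). Recovered reads ranged from 14222204 to 31910890 per library. Mitochondrially encoded genes took 8.79% to 10.7% of reads in the young libraries, 13.2% to 17.6% in the old wild-type libraries and 9.47% to 14.1% in the P311-/- libraries. Markers of mature muscle fibres were present in every library, with a summed level of 50318 to 72009 FPKM. In bulk RNA, fewer cells of a type and less RNA per cell cannot be told apart.

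Promoter letters were available for 69 of the 78 members, as 75 RefSeq windows on GRCm38.p6 of 250 bases before to 50 bases after the transcription start. Motifs of 3 factors known for nuclear genes of mitochondrial function were searched on both strands, since the members are examined together below. CCGGAAG, the core bound by ETS factors such as GABP, was in 34.7% of member windows, against 16.6% of windows of other tested protein-coding genes and 8.86% of all windows. The NRF1 palindrome, searched as GCGCA, any base, then GCGC, was in 17.3%, 9.53% and 4.60% in the same order. AAGATGG, the core of YY1, was in 17.3%, 6.86% and 6.34%. At least 1 of these motifs was in 43 of 75 member windows (57.3%), against 29.1% and 18.0%, and matches of different motifs never overlapped in member windows. A match is a stretch of letters and not a shown binding site.

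Below are 100 bases before the start of 4 members, chosen after values were seen to set motif content beside the change with age described further on. Capitals mark a motif match on either strand. Mrpl52 (chr14:54426809-54426908, plus strand) holds a YY1 and an ETS match and was higher in old than in young wild type. Mrpl58 (chr11:115403652-115403751, plus strand) holds an ETS match and was among the members that changed least. Mrpl30 (chr1:37890377-37890476, plus strand) holds an NRF1 match and gave a log2 fold change of 0.36 with age, which did not pass the test (limma adjusted p = 0.161). Mrpl41 (chr2:24975099-24975198, minus strand), higher with age, holds none of the 3 in this stretch.
Mrpl52: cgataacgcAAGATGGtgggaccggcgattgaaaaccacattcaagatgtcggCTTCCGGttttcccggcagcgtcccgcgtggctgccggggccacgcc
Mrpl58: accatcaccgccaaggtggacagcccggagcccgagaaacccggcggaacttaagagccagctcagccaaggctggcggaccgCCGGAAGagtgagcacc
Mrpl30: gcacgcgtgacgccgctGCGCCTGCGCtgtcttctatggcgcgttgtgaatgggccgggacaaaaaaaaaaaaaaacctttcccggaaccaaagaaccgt
Mrpl41: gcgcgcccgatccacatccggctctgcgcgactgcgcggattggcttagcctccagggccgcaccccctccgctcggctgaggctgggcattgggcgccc
The 42 tested members with any of the motifs had a median log2 fold change of 0.27 between old and young wild type, with 9 of them past the threshold. The 26 tested members with a window and no motif had a median of 0.31, with 3 past it. These medians lay close together, and the difference was not tested.

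The members covered a wide range of levels. Mrps21, a small-subunit protein with a bacterial homologue (chr3:95862634-95871519), had the highest mean over the 9 libraries, 85.7 FPKM. It stood at 77.6, 78.4 and 58.9 FPKM in young wild type, 108, 90.3 and 111 FPKM in old wild type and 75.5, 97.0 and 75.2 FPKM in old P311-/-. Mrps28 followed at a mean of 51.0 FPKM, then Mrpl54 at 49.2, Mrpl34 at 49.0 and Mrps23 at 47.7, and these 4 lay close together. The median member had a mean of 15.5 FPKM, against 3.77 FPKM for the median of all 14233 genes tested. At the low end stood Mrps25 with 2.76 FPKM, Mrps35 with 2.92, Mrps30 with 3.67 and Mrpl19 with 3.69. FPKM is per length of gene as deposited, which was 739 bases for Mrps21 and 7326 bases for Mrpl33. The ranks of levels between genes therefore depend on these lengths as well.

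Mrpl53, a large-subunit gene (chr6:83109040-83109939), was listed at 0 in all 9 libraries and was the 1 member that did not pass the filter on low values, which left 77. Its whole span lies inside that of Gm42688 on the same strand, itself at 0.0333 to 0.292 FPKM, and its first bases overlap Ccdc142os on the opposite strand. Another 5 processed pseudogenes share the name pattern and are not members, Mrpl23-ps1, Mrpl48-ps and 3 copies of Mrps36. Reads of these copies and of Mrpl23, Mrpl48 and Mrps36 could be split by the counting, so the values of those 3 members carry that uncertainty. The same holds for 23 members that overlap another tested gene, 21 of them on the opposite strand, because it is not known here whether counting used strand.

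Old against young wild type asked what age changed in the injured muscle. Mitochondrial ribosomal protein genes were on balance higher in old muscle, with a median log2 fold change of 0.29 over the 77 members, a median fold of 1.22, against 0.00 over all genes tested. Of the 77, 73 lay above 0 (50.4% of all genes did), and 13 were higher by limma at an adjusted p under 0.05. No member was called lower. The called members code for 10 large-subunit proteins, Mrpl13, Mrpl20, Mrpl32, Mrpl33, Mrpl35, Mrpl41, Mrpl49, Mrpl50, Mrpl52 and Mrpl57, and for 3 small-subunit proteins, Mrps18c, Mrps24 and Mrps33. Over all genes, 3.39% were called higher and 2.01% lower, so the members' share of 16.9% called higher stood above the background. The libraries of the 2 groups did not overlap for 47 members, all higher in old muscle, against 19.0% of all genes higher without overlap and 18.1% lower.

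**Figure D1:**
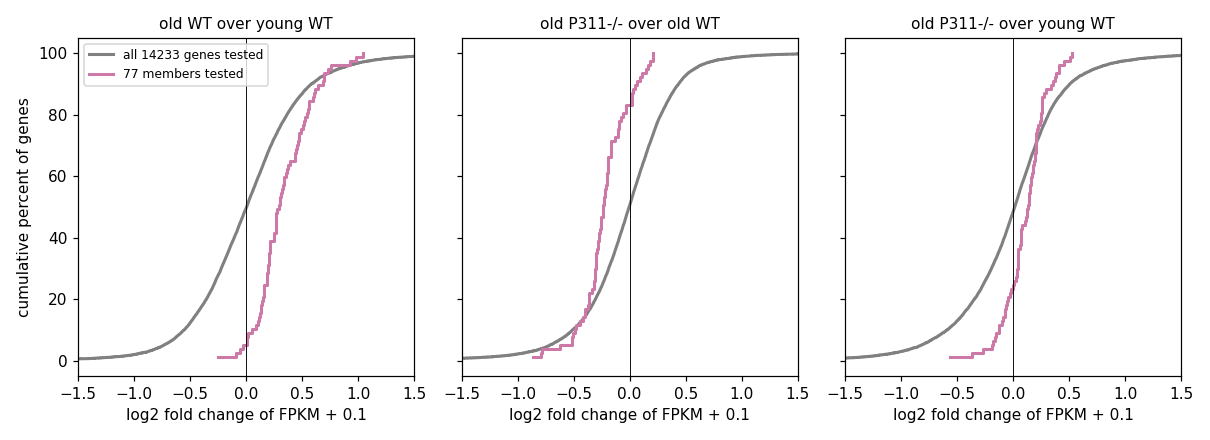
Cumulative percent of genes (vertical axis) against the log2 fold change of FPKM + 0.1 (horizontal axis), for the 77 members tested and all 14233 genes tested, in the 3 comparisons. The curve of the members lies to the right of 0 in old against young wild type (median 0.29), to the left in old P311-/- against old wild type (median -0.24) and slightly to the right in old P311-/- against young wild type (median 0.14).

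The small subunit was led by Mrps18c and Mrps33. Mrps18c (chr5:100798627-100804471), the member of the trio of S18 genes that keeps the bacterial protein's place in the small subunit, was at 18.3, 15.7 and 17.3 FPKM in young wild type and at 25.4, 44.6 and 38.6 FPKM in old wild type. The lowest old library lay above the highest young one, and the old libraries were spread more widely. Its log2 fold change came to 1.04 (SE 0.26, limma adjusted p = 0.0483). Mrps18a and Mrps18b, the other two of the trio, gave log2 fold changes of 0.19 and 0.21, and neither passed the test. Mrps33 (chr6:39801804-39810988), a protein specific to mitochondria, was at 14.0, 12.7 and 10.9 FPKM in young and at 20.8, 27.5 and 26.1 FPKM in old muscle. That is a log2 difference of 0.98 (SE 0.21, limma adjusted p = 0.0381). Mrps24 (chr11:5703983-5715680), counterpart of bacterial S3, was at 28.0 ± 2.39 FPKM in young and 40.1 ± 2.13 FPKM in old muscle (SD, n = 3), a log2 fold change of 0.52, and overlaps Urgcp on the same strand.

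Among large-subunit genes with a bacterial homologue, Mrpl32 (chr13:14608184-14613165) changed most. Its protein is made with an extension that a protease of the mitochondrial inner membrane cuts off before it joins the ribosome. It was at 4.36, 4.11 and 3.54 FPKM in young wild type and at 6.51, 8.01 and 8.65 FPKM in old wild type, a log2 fold change of 0.93 (SE 0.16, limma adjusted p = 0.0307). Mrpl35 (chr6:71812997-71826969) had narrow groups, at 7.20, 7.70 and 7.70 FPKM in young and at 11.3, 12.2 and 11.4 FPKM in old muscle. This made a log2 difference of 0.62 (SE 0.10, limma adjusted p = 0.0307). Mrpl20 gave a log2 fold change of 0.68, Mrpl33 0.60 and Mrpl13 0.49, each without overlap between the groups. Mrpl33 overlaps Rbks and Mrpl13 overlaps Mtbp, both tested genes on the opposite strand.

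The called large-subunit genes that are specific to mitochondria were Mrpl41, Mrpl52, Mrpl57, Mrpl49 and Mrpl50. Mrpl41 (chr2:24974117-24975098) was at 29.1, 31.9 and 25 FPKM in young and 39.8, 47.7 and 59.7 FPKM in old muscle, a log2 fold change of 0.76 (SE 0.17, limma adjusted p = 0.0428). Mrpl52 (chr14:54426909-54429756) was at 26.0, 24.9 and 24.6 FPKM in young and 37.6, 46.5 and 38.8 FPKM in old muscle, a log2 fold change of 0.69. Mrpl57 (chr14:57826234-57829296) was at 8.58, 8.12 and 9.19 FPKM in young and 12.2, 12.5 and 14.8 FPKM in old muscle, a log2 fold change of 0.60. All old libraries lay above all young ones for these 3 genes. Mrpl49, which overlaps Syvn1 on the opposite strand, gave a log2 fold change of 0.56, and Mrpl50 gave 0.45. The adjusted p of the 13 called genes ran from 0.0307 to 0.0483, all near the threshold.

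**Figure D2:**
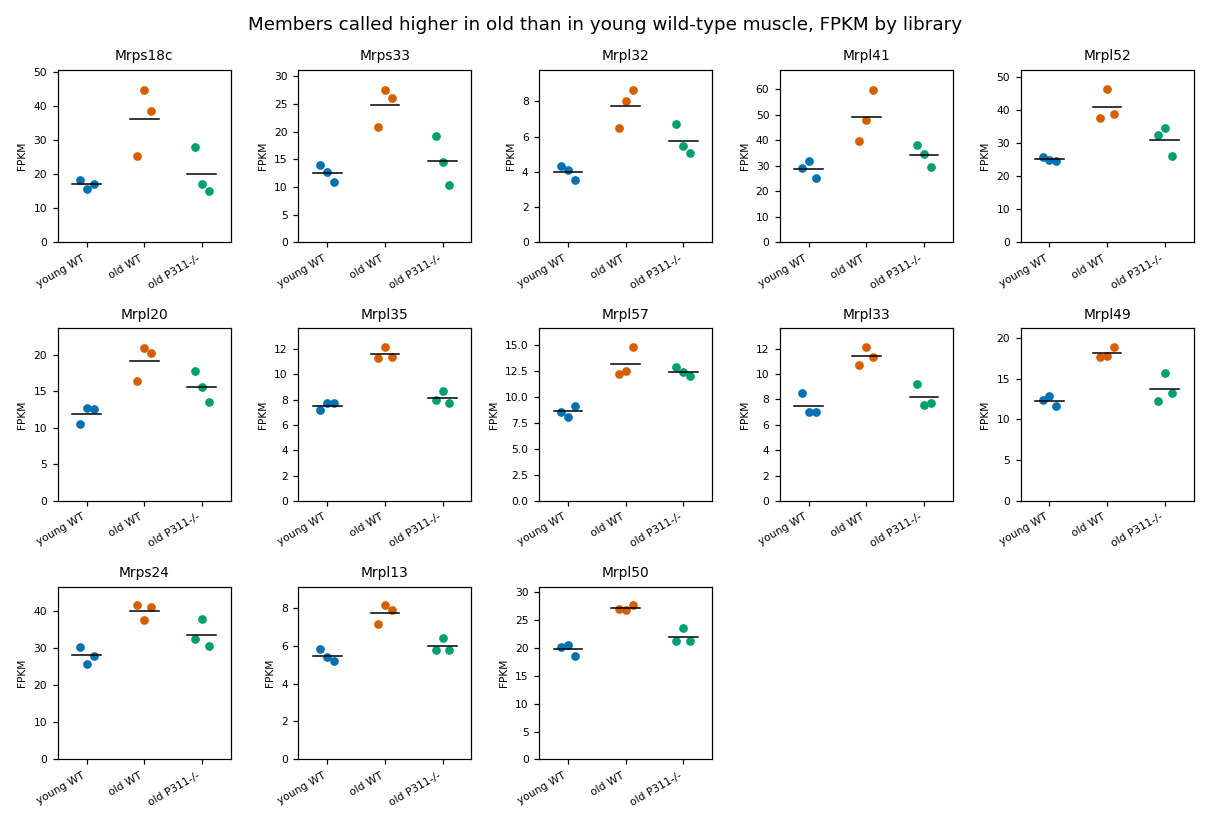
FPKM (vertical axis, from 0) of the 13 members called higher in old than in young wild type, by group (horizontal axis); each point is 1 library and each bar the mean of 3. For every gene the old wild-type points lie above the young ones; the old P311-/- points of Mrpl57 (12.9, 12.4 and 12) lie beside those of old wild type, while those of Mrpl35 (7.96, 8.66 and 7.76) lie below all of them.

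The 2 subunits had similar medians, and their difference was not tested. The median log2 fold change was 0.27 over 26 small-subunit members, with 3 called, and 0.29 over 50 tested large-subunit members, with 10 called. Members with a bacterial homologue had a median of 0.31, with 7 of 46 called, and members specific to mitochondria had 0.27, with 6 of 30 called. The 4 members below 0 were Mrpl19 at -0.26, Mrps6 at -0.09, Mrpl4 at -0.05 and Mrpl38 at -0.03, and none passed the test. The smallest changes were 0.01 for Mrpl34, 0.01 for Mrpl14 and 0.02 for Mrpl58, a protein of the release factor family built into the large subunit. Mrpl34 is highly expressed, at 51.8, 55.2 and 48.4 FPKM in young and 54.2, 54.1 and 47.7 FPKM in old muscle. Mrpl12, reported to bind the mitochondrial RNA polymerase, gave 0.20, and Mrps12, a protein of the decoding site, gave 0.37, with overlapping libraries in both. Mrps36, the gene outside the ribosome, gave 0.13.

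The count of called members depended on single libraries and on the joint removal of trends with GC content and gene length, while the median stayed above 0 in every alternative run. Leaving out any 1 of the 3 young libraries, or old wild-type replicate 2 or 3, left 0 members called, and 24 to 33 members then had an unadjusted p under 0.05, against 35 with all libraries. Calls over all genes also fell in these 5 fits, to 0.0984% of genes or fewer. Without old wild-type replicate 1 the count was 8, with 3.93% of all genes called in either direction, against 5.4% with all libraries. It was 20 without P311-/- replicate 1 (12.3% of all genes) and 6 without P311-/- replicate 3 (3.06%), which enter through the shared spread. It was also 0 with no filter on low values, with total-count scaling and with the replicate number as a block. With the trends with GC content and gene length removed from each library, 0 members were called and 71 of 77 members lay above 0. The median of the members was then 0.28, against 0.03 over all genes, a difference of 0.24 where the main fit had 0.29. In that fit Mrpl50 fell to 0.04, Mrpl57 to 0.36, Mrpl32 to 0.61, Mrps18c to 0.63 and Mrps33 to 0.64. Genes within the members' interquartile range of length and GC numbered 2322 and had a median of 0.06. Across the 77 members, the log2 fold change fell with GC (Spearman rho -0.38), and it did so across all genes (rho -0.36). Fibre markers summed to 50318 to 54863 FPKM in young and 57439 to 70566 FPKM in old wild type, with 7 of 10 above 0 and Myh1 called lower. Fibroblast markers summed to 1722 to 1855 FPKM in young and 1158 to 1417 FPKM in old wild type, with 8 of 10 below 0 and Col1a1 and Osr1 called lower. All 10 macrophage markers lay below 0 and none was called, and none of the markers was at 0 in all libraries. Their part in the members' change was not tested.

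**Figure D3:**
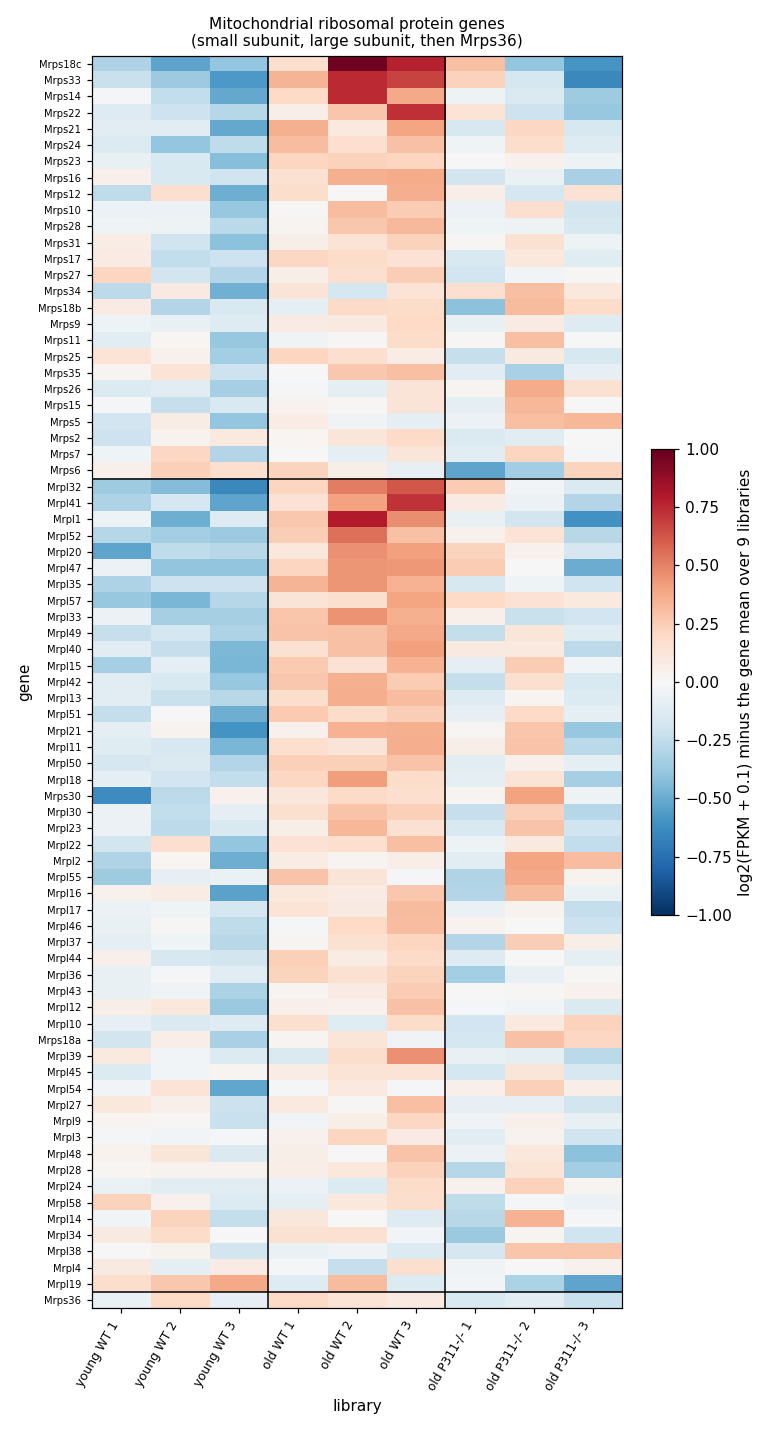
Heat map of log2(FPKM + 0.1) minus the gene's mean over 9 libraries (colour scale) for the 77 members tested (rows) in the 9 libraries (columns). The old wild-type columns are mostly above the gene means (64 to 68 of 77 members per library), the young wild-type columns mostly below (7 to 28 members above).

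Old P311-/- against old wild type asked what the deletion changed in old injured muscle. The members were on balance lower in the P311-/- libraries, with a median log2 fold change of -0.24 over the 77, a median fold of 0.85, against -0.00 over all genes. Of the 77, 64 lay below 0, as did 50.4% of all genes. No member passed limma's threshold after adjustment, where 10 genes in all did (0.0703% of those tested, 0.0562% lower and 0.0141% higher). At an unadjusted p under 0.05, 22 members were lower and 0 higher, against 8.54% and 7.59% of all genes, and voom on recovered reads also called 0 members, with 24 at an unadjusted p under 0.05. The libraries of the groups did not overlap for 29 members, each lower in P311-/-, against 9.39% of all genes lower and 8.64% higher without overlap. This comparison shares its old wild-type libraries with the comparison by age, so values that are high in those libraries enter both.

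Mrpl35 had the smallest p, with 7.96, 8.66 and 7.76 FPKM in P311-/- against 11.3, 12.2 and 11.4 FPKM in old wild type. This gave a log2 difference of -0.51 (SE 0.10, limma adjusted p = 0.214). Mrpl1 (chr5:96209493-96266727), the protein of the stalk where spent transfer RNA leaves the large subunit, was at 9.38, 8.70 and 6.46 FPKM in P311-/- against 11.9, 17.2 and 13.7 FPKM in old wild type. The log2 difference came to -0.79 (SE 0.19, limma adjusted p = 0.242). In both genes every P311-/- library lay below every old wild-type library. Mrps16 (chr14:20389304-20393634) was at 9.83, 10.7 and 8.90 FPKM in P311-/- against 12.5, 14.4 and 14.5 FPKM, a log2 fold change of -0.49. Mrps33 was at 19.2, 14.5 and 10.4 FPKM, a log2 fold change of -0.79, and Mrpl33 at 9.17, 7.56 and 7.70 FPKM, a log2 fold change of -0.48. Mrps18c gave the largest difference, -0.86, but with P311-/- libraries at 27.9, 17.3 and 15 FPKM its groups overlapped. None of these passed the test.

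Other members lay near their old wild-type level. Mrpl57 was at 12.9, 12.4 and 12 FPKM in P311-/- muscle, a log2 fold change of -0.08 against old wild type (SE 0.11). Mrps15 and Mrps7, of the small subunit, and Mrpl14, of the large subunit, each gave 0.02. The highest value was 0.21, for both Mrps5 and Mrpl38. Median log2 fold changes were -0.22 for the small and -0.24 for the large subunit, values close to each other. Mrps36, outside the ribosome, gave -0.30 (unadjusted p = 0.0269 in the limma fit).

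One P311-/- library bore on this count. Without P311-/- replicate 1, 7 members were called, all lower in P311-/-, namely Mrpl1, Mrpl33, Mrpl35, Mrps14, Mrps16, Mrps18c and Mrps33, and 13.2% of all genes were called in either direction. The median was then -0.21. The fold change rose with GC across the 77 members (Spearman rho 0.43) and across all genes (rho 0.40). With the trends with GC and length removed from each library, the median of the members was -0.20, against -0.02 over all genes. Macrophage markers had a median log2 fold change of -0.24, with 9 of 10 below 0, and summed to 717 to 1663 FPKM in P311-/- and 1242 to 1820 FPKM in old wild type. Fibroblast markers had a median of -0.27, with 8 of 10 below 0, and summed to 768 to 1411 FPKM against 1158 to 1417 FPKM. Fibre markers had a median of 0.19, with 7 of 10 above 0, and summed to 56705 to 72009 FPKM against 57439 to 70566 FPKM. No marker was called, and their part in the members' values was not tested.

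Old P311-/- against young wild type differs in age and genotype together. The members were slightly higher in P311-/-, with a median log2 fold change of 0.14, against 0.01 over all genes, and 59 of 77 lay above 0, against 51.6% of all genes. No member was called by limma, against 0.4% of all genes (0.155% higher and 0.246% lower). At an unadjusted p under 0.05, 8 were higher and 1 lower, which is 10.4% and 1.3% of the members, against 10.9% and 10.6% of all genes. The share higher was near the background and the share lower was below it. The voom fit on recovered reads also called 0, with 9 members at an unadjusted p under 0.05. Groups did not overlap for 12 members that were higher and 2 that were lower, Mrpl19 and Mrps36, against 11.6% and 12.0% of all genes. With scaling by total counts, which moved the median of all genes to -0.13, the median of the members was -0.01, with 35 above 0 and 42 below, and the difference between these medians was 0.12 under both scalings. The median was 0.04 without P311-/- replicate 2 and 0.06 without young replicate 3.

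Mrpl57 came nearest to the threshold, with a log2 fold change of 0.52 over young wild type (SE 0.11, limma adjusted p = 0.0779). Mrpl32 followed at 0.51, with 6.69, 5.49 and 5.06 FPKM in P311-/- above the young libraries at 4.36, 4.11 and 3.54 FPKM. Mrps26 gave 0.38 and Mrpl2 gave 0.46. Mrpl19, a large-subunit gene, ran the other way, at 3.54, 2.88 and 2.48 FPKM in P311-/- against 4.09, 4.37 and 4.74 FPKM in young muscle, a log2 fold change of -0.56. The smallest changes were 0.00 for Mrpl17, 0.01 for Mrpl12 and 0.02 for Mrps27. Without P311-/- replicate 1, 4 members were called, Mrpl2, Mrpl57 and Mrps26 higher and Mrpl19 lower, which is 4 of 77 where 19.6% of all genes were called in either direction.

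Markers of macrophages and fibroblasts were on balance lower in this comparison. Macrophage markers had a median log2 fold change of -0.77, with 9 of 10 below 0 and 8 lower at an unadjusted p under 0.05, and summed to 717 to 1663 FPKM in P311-/- against 1531 to 2365 FPKM in young muscle. All 10 fibroblast markers lay below 0, with a median of -0.54 and 7 lower at an unadjusted p under 0.05, and their sums were 768 to 1411 FPKM against 1722 to 1855 FPKM. Fibre markers had a median of 0.28, with 9 of 10 above 0. Medians were -0.08 for endothelial cell, -0.09 for satellite cell, 0.01 for lymphocyte, 0.48 for adipocyte and 0.25 for Schwann cell markers. No marker was called after adjustment in the limma fit, and the part of the markers in the members' values was not tested.

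Set side by side, the group means of 46 of the 77 members ran in the order old wild type, old P311-/-, young wild type, an order held by 20.6% of all genes tested. For 16 members P311-/- was lowest and old wild type highest, an order held by 12.6% of all genes. For 10 members P311-/- was highest and young wild type lowest, an order held by 17.1% of all genes. The summed level of all members was 1416, 1444 and 1237 FPKM in young wild type, 1661, 1731 and 1794 FPKM in old wild type and 1420, 1626 and 1398 FPKM in old P311-/-. Means were 1366 ± 113, 1729 ± 66.5 and 1481 ± 126 FPKM (SD, n = 3). The old wild-type libraries lay above all others, while P311-/- and young libraries overlapped. Young replicate 3 held the lowest value of 40 members, and old wild-type replicate 3 the highest of 30. P311-/- replicate 2 stood apart from its group, with the highest value of 16 members, where P311-/- replicates 1 and 3 held the highest of 0 and 2. The summed level of small-subunit genes relative to that of large-subunit genes was 0.428 to 0.458 in the young libraries, 0.471 to 0.490 in the old wild-type libraries and 0.441 to 0.479 in the P311-/- libraries. Sums weigh the highest genes most. By gene, the median log2 fold change with age was 0.27 for the small and 0.29 for the large subunit.

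**Figure D4:**
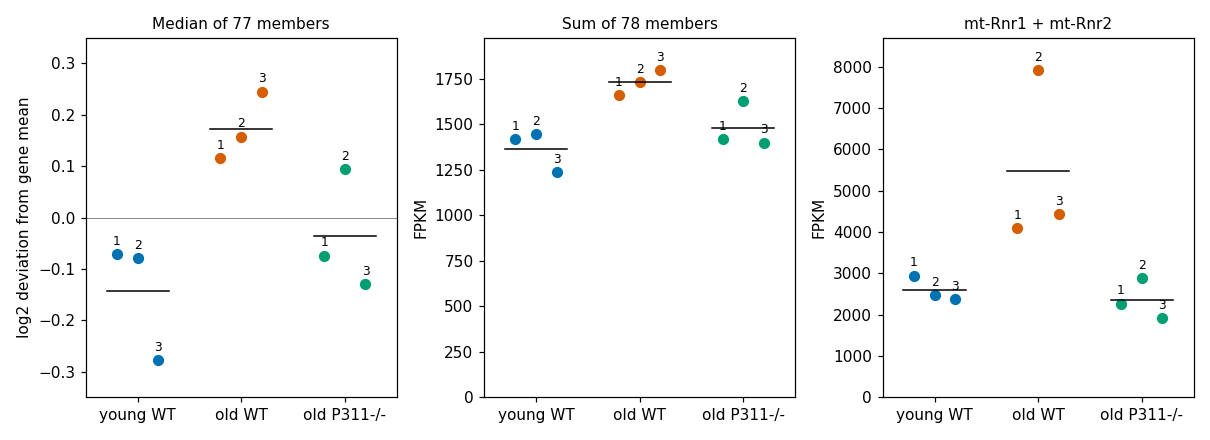
Median deviation of the 77 tested members from their own means (log2), summed FPKM of all members and summed FPKM of the mitochondrial rRNAs mt-Rnr1 and mt-Rnr2, for each of the 9 libraries by group. The 3 old wild-type libraries are highest by sum of the members (1661 to 1794 FPKM), and P311-/- replicate 2 (1626 FPKM) lies nearest to them.

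Most members varied together across libraries. Over the 9 libraries, 59 of 77 members had a Pearson correlation above 0.5 with the mean of the members, and the median was 0.78. Mrpl4, Mrpl38, Mrps6 and Mrpl19 had correlations below 0, and these are the same 4 members that lay below 0 with age. Each member is part of that mean, and the libraries share 3 group labels, so the values are a description. The share of all genes tested above 0.5 was not counted, so how unusual 59 of 77 is cannot be told. The 5 other protein-coding genes most like the mean of the members were Ndufa1 (r = 0.989), Clybl (0.984), Atp5f1 (0.982), Ndufs6 (0.974) and Tomm70a (0.973). Ndufa1 and Ndufs6 code for complex I subunits, Atp5f1 for an ATP synthase subunit, Tomm70a for an import receptor of the outer membrane and Clybl for a matrix enzyme. Ndufa1 stood at 92.1 ± 13.4 FPKM in young, 143.7 ± 4.89 FPKM in old wild type and 106.3 ± 13.1 FPKM in P311-/- (SD, n = 3). Ndufs6 shares its start region with Mrpl36.

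The other parts of mitochondrial translation were taken from lists of known genes. Over all genes tested, 50.4% lay above 0 with age, 3.39% were called higher and 2.01% were called lower. With lists this short, 1 or 2 calls are not read as a result about a list. Of 5 mitoribosomal proteins whose symbols do not follow the name rule, all lay above 0 with age, with a median log2 fold change of 0.30, and Chchd1 was called. Chchd1, a small-subunit protein, was at 67.6, 55 and 52.3 FPKM in young, 100.4, 129 and 117 FPKM in old wild type and 76.6, 72.5 and 53.1 FPKM in P311-/-, a log2 fold change of 0.99 with age (limma adjusted p = 0.0307). Of 29 genes of mitoribosome assembly and rRNA modification, 22 lay above 0 and 2 were called higher, with a median of 0.29. These were Mettl15, a methyltransferase of the small-subunit rRNA, with a log2 fold change of 1.16, and Malsu1, a large-subunit assembly factor, with 0.75. Malsu1 was at 8.50, 12.2 and 9.39 FPKM in P311-/- against 8.62, 11.6 and 10.04 FPKM in old wild type, so its libraries overlapped there. Of 15 tested translation factors, 14 lay above 0 and 1 was called, the release factor Mtrf1l with 0.55, and the median was 0.16. The 20 mitochondrial aminoacyl-tRNA synthetases, which charge the transfer RNAs, had a median of 0.03 with 10 above and 10 below 0 and none called.

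The RNA that these proteins package had its highest sums in the old wild-type libraries, and 1 of its 2 genes was called with age. The summed level of the mitochondrial rRNAs was 2381 to 2947 FPKM in young, 4102 to 7908 FPKM in old wild type and 1910 to 2886 FPKM in P311-/-. mt-Rnr2, the large-subunit rRNA, was called higher with age at a log2 fold change of 1.20 (limma adjusted p = 0.0499), and mt-Rnr1, the small-subunit rRNA, gave 0.82 (adjusted p = 0.0556). Against old wild type, P311-/- gave -1.25 for mt-Rnr2 and -1.09 for mt-Rnr1, and neither passed the test. The libraries were made from poly(A) RNA, per the labels, a selection that keeps such rRNAs only in part. All 13 mitochondrially encoded protein genes lay above 0 with age, with a median of 0.83, and mt-Co2 and mt-Co3 were called. All 13 lay below 0 in P311-/- against old wild type, with a median of -0.36 and none called.

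Genes of mitochondrial transcription and DNA maintenance were on balance higher with age. Of 12, 9 lay above 0 (50.4% of all genes did) with a median log2 fold change of 0.47. Ssbp1, Mterf2 and Tfam were called higher, where 3.39% of all genes were. Tfam, which packages mitochondrial DNA and starts its transcription, was at 10.8, 9.84 and 9.21 FPKM in young and 13.6, 14.7 and 13.6 FPKM in old wild type, a log2 fold change of 0.49 (limma adjusted p = 0.0399). Ssbp1, the single-strand binding protein, gave 0.96 and Mterf2 gave 0.76. Polrmt, the mitochondrial RNA polymerase, gave -0.20 and was not called. Of 15 general markers of mitochondrial mass, 13 lay above 0 with a median of 0.25, and Hspe1 was called at 0.43. This single call is not read as a result about the markers.

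The regulators known for these nuclear genes showed no shared direction. Among 10, 4 lay above 0 and 6 below with age, and the median was -0.05. Over all genes, 50.4% lay above 0 and 2.01% were called lower. Ppargc1b, a coactivator of mitochondrial genes, was called lower, at 5.97, 6.09 and 5.02 FPKM in young and 1.98, 2.42 and 2.45 FPKM in old wild type, a log2 fold change of -1.28 (limma adjusted p = 0.0246). It was at 3.38, 2.51 and 3.50 FPKM in P311-/-. Log2 fold changes with age were 0.06 for Ppargc1a, -0.04 for Nrf1, 0.13 for Gabpa, 0.06 for Yy1, -0.06 for Esrra and 0.26 for Myc, and none passed the test. No gene of any of these lists was called in P311-/- against old wild type or against young wild type. Calls of genes in these lists are given for the main fit only. They may be lost in the alternative runs where few or no genes at all were called.

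A feature that the name rule did not use was the place of the genes. A protein-coding gene on the opposite strand, head to head, with starts from a 100-base overlap to 1000 bases apart, was found for 20 of 78 members (25.6%). It was found for 1313 of 12383 tested protein-coding genes (10.6%). Examples are Mrpl43 and Twnk, the mitochondrial helicase, with starts 116 bases apart, Mrps12 and Sars2, the mitochondrial seryl-tRNA synthetase, at 172 bases, and Mrps18c and the helicase gene Helq at 29 bases. Of the 13 members called with age, 6 had such a partner. Of the 20 partners, 18 were tested, and 7 of them lay above 0 with age, where 50.4% of all genes did. Only 1 partner was called higher, where 3.39% of all genes were, so this count is not read as a result about the partners. Their median log2 fold change was -0.08, against 0.00 over all genes.

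The called partner was Psma2, a proteasome subunit whose start lies 75 bases from that of Mrpl32. Psma2 was at 19.8, 17.8 and 17.6 FPKM in young, 29.4, 33.7 and 34.3 FPKM in old wild type and 28.1, 25.8 and 21.9 FPKM in P311-/-, a log2 fold change of 0.82 with age (limma adjusted p = 0.0301). Mrpl32 and Psma2 thus had the same order of groups. The call of Psma2 is likewise given for the main fit only. Mrps18c and Helq did not, with Helq at 1.26, 1.56 and 1.81 FPKM in young and 1.09, 1.13 and 1.21 FPKM in old wild type, a log2 fold change of -0.39 that did not pass the test. Fau, head to head with Mrpl49, gave 0.12 at 299.6 FPKM in young and 324.4 FPKM in old muscle. Members are shorter than other genes, with a median gene length of 2255 bases against 3837, and similar in GC content, with medians of 50.4% and 50.1%. Length went with the change in old against young wild type across all genes (Spearman rho -0.25) but hardly across the members (rho 0.04).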

How the data were processed

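The authors deposited FPKM (reads scaled by gene length and by library size) for 54532 genes in 9 libraries of poly(A) RNA. Per the submitters' processing notes, HISAT2 2.2.1, featureCounts 2.1.1 and DESeq2 1.42.0 were among the tools and mm39 was the build. The gene positions deposited were those of GRCm38, since 98.3% of identifiers also in GENCODE M21 (53499 of 54409) had the same positions there. Gene lengths in bases came from the authors' deposited table. FPKM multiplied by length and a constant of each library came out as whole reads in 100% of values (tolerance 0.001). The library sizes behind the values were proportional to median-of-ratios size factors. Recovered reads ranged from 14222204 to 31910890 per library and served for filters, other scalings and voom.

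Tests used limma 3.58.1 (R 4.3.3), with trend and robust moderation, on log2 of FPKM plus 0.1, which understates changes of low genes. Genes needed 0.5 FPKM and 10 recovered reads, each in at least 3 libraries, which left 14233. All 9 libraries entered 1 fit without a block. Each of 3 comparisons was adjusted over all genes (Benjamini-Hochberg), and an adjusted p under 0.05 is a call. Fold changes are first group over second, SE refers to log2 fold changes, and SD to FPKM over 3 libraries. The method was tested on simulated data.

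Members, lists and markers were chosen with earlier results of these data known. Genes named are the called members, the 5 of smallest p where under 5 were called, the 5 highest and lowest, the 3 of smallest change, 8 members always given, up to 4 called genes per list, 11 other genes always given and the 5 non-members most like the members; others were named after their values were seen. Alternatives were a pseudocount of 1, no filter, total-count scaling with and without mitochondrially encoded genes, voom, library weights, the 6 libraries compared, the replicate number as a block, removal of the trend with GC and length, and leaving out each library.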

Additional observations from a re-analysis of the deposited data

How the results depend on the processing

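Of old against young wild type, 13 members were called, and all 13 were also among the 17 that voom called; a pseudocount of 1 gave 13. With the share of all genes called in either direction in parentheses (5.4% as reported), no filter on low values gave 0 called members (0.0169%), total-count scaling 0 (2.43%), total-count scaling without mitochondrially encoded genes 2 (2.21%), library weights 25 (16.1%), the 6 libraries compared 21 (11.6%) and removal of the trend with GC and length 0 (0.0985%). With the replicate number as a block 0 members and 0 genes were called, and 0 members (0.0422%) with the block and the trend removed; 30 and 31 members then had an unadjusted p under 0.05. Leaving out single libraries gave 0 to 20 called. For P311-/- against old wild type, 0 were called, library weights gave 20 (19.1%), with weights of 0.270, 0.687 and 2.54 for P311-/- replicates 1 to 3, and leaving out single libraries gave 0 to 7 (13.2% where 7). For P311-/- against young wild type the counts were 0, 5 with library weights (22.3%) and 0 to 4. In both comparisons the other settings, the block included, gave 0. The labels do not say that replicate numbers pair the libraries. Same-numbered libraries of different groups had correlations of deviations from -0.10 to 0.15, 1 of 9 above 0.1, and 2 of 9 libraries correlated best with their own number. With 3 libraries a group, these values cannot exclude a pairing. Medians without single libraries ran from 0.21 to 0.32 with age, from -0.31 to -0.19 for P311-/- against old and from 0.04 to 0.17 against young wild type. Total-count scaling moved the median of all genes with age to -0.12 and that of the members to 0.16, with 64 of 77 above 0, a difference of 0.28. With 3 libraries a group, the smallest log2 fold change called with age was 0.45, above the median of 0.29.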
